A study of Drosophila mettleri with 18 samples.

Results

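Larvae of the fly Drosophila mettleri from Santa Catalina Island were compared between 2 cactus foods, saguaro and coastal prickly pear. The comparison takes 6 of the 18 libraries of the series: 3 strains of the island population, labelled C-M, C-7 and C-9, each reared once on saguaro and once on prickly pear. The strain is the replicate and occurs on both foods, so every strain gives its own saguaro minus prickly pear difference. Each library is 1 pool of 10 larvae, 8 days old. The same 3 strains on Drosophila instant medium (lab food), and 3 Sonoran stocks (T-22, T-27, T-28) on both cacti and on lab food, are the other 12 libraries. They entered the fit, where they help to estimate the spread, and are given beside the results. The strains are separate stocks with 1 pool per food, so the spread between strains includes that between pools and between libraries.

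D. mettleri is a fly of the North American deserts whose larvae live in soil soaked with the juice of rotting cacti. Saguaro is a columnar cactus, a kind of plant known for its alkaloids, which larvae living on it have to tolerate. Prickly pears belong to a different branch of the cacti, and they are the host linked with the island population. The study concerns transcript variation tied to host plants in this species, and this comparison sets both cactus hosts against each other in one population. Transcripts were assembled without a genome, and the files pair no assembly name with a gene name. The unit of the results is therefore the assembled feature, and no function is given for any of them.

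The table held 15947 features, of which 12514 had enough counts to be tested. Totals ranged from 13449136 to 15418605 counts on saguaro and from 12177096 to 14560231 on prickly pear, so depth differed little between the foods. The factors that TMM (trimmed mean of M-values) scaling gave the libraries differed more. They ran from 0.676 to 0.957 on saguaro and from 1.18 to 1.64 on prickly pear, without overlap. Levels below are CPM, read counts scaled to a common library size with these factors. The libraries hold whole larvae, so fewer cells of a type and less RNA per cell cannot be told apart.

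The 3 strains differed in how far apart their saguaro and prickly pear libraries lay. The root mean square difference over the 12514 features, on the log2 CPM scale, was 1.98 in C-M and 1.68 in C-9 but 0.530 in C-7. More than a 2-fold difference separated the foods for 5143 features in C-M (41.1%), for 4895 in C-9 (39.1%) and for 882 in C-7 (7.05%). In C-7 all 3 foods were close to one another, since saguaro lay 0.547 and prickly pear 0.539 from lab food. C-M and C-9 reached a similar separation of the cacti in different ways. In C-M the saguaro library lay 1.85 from lab food and the prickly pear library 0.807. In C-9 the saguaro library lay 0.597 from lab food and the prickly pear library 1.57. The Sonoran strains lay between these cases, at 0.784 to 0.901 between the cacti. The C-9 lab food library was itself set apart, at 0.991 from those of C-M and C-7, which were 0.589 apart. From the lab food libraries of C-M and C-7, the C-9 saguaro library lay 1.16 and 1.19. Each of these values comes from a single pair of libraries, and a difference between strains was not tested.

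**Figure D1:**
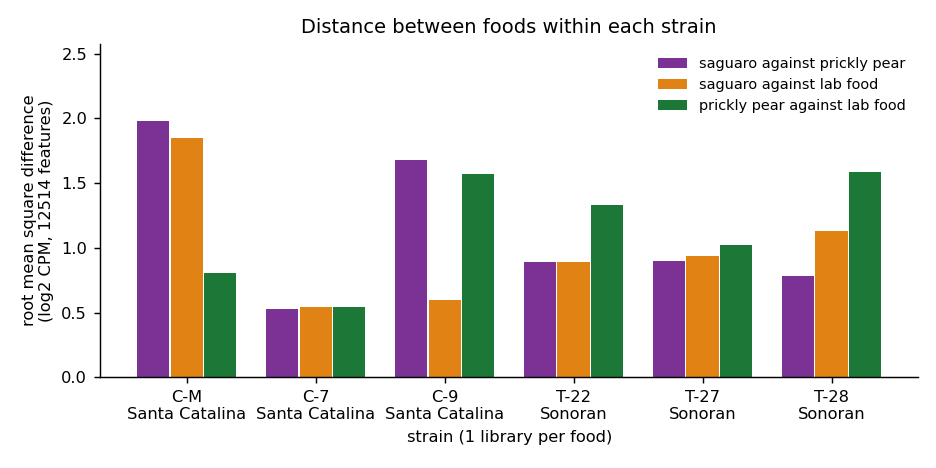
Root mean square difference in log2 CPM (y axis) between the libraries of 2 foods within each of the 6 strains (x axis), 1 library per strain and food. The saguaro against prickly pear bar stands at 1.98 in C-M, 1.68 in C-9 and 0.530 in C-7, and the lab food library lies near prickly pear in C-M and near saguaro in C-9.

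The first principal component of the 6 libraries held 70.3% of their variance. The prickly pear libraries sat at -61.9 (C-M), -50.3 (C-7) and -87.0 (C-9) and the saguaro libraries at 154 (C-M), -17.8 (C-7) and 63.3 (C-9). The foods did not overlap on it, but on this component the C-7 saguaro library was nearer to the prickly pear libraries than to the other saguaro libraries. Its nearest Catalina library was C-7 on prickly pear, at a root mean square difference of 0.530. By that measure it lay 1.68 (C-M) and 1.03 (C-9) from the other saguaro libraries. From the other prickly pear libraries it lay 0.665 (C-M) and 1.09 (C-9). Strains spread more on saguaro than on prickly pear: the SD of log2 CPM over the 3 strains had a median of 0.467 on saguaro and 0.275 on prickly pear, and it exceeded 1 for 22.8% and 6.38% of features. On lab food the median was 0.301. Between saguaro libraries the root mean square difference was 1.68 (C-M with C-7), 1.35 (C-M with C-9) and 1.03 (C-7 with C-9). Between prickly pear libraries it was 0.561, 0.781 and 1.01 in the same order. Both larger saguaro values involve the C-M library, and C-7 with C-9 differed about as much on either cactus.

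The fit to all 18 libraries compares group means and does not use the pairing by strain. Under it, 798 features were higher on saguaro and 219 lower (edgeR quasi-likelihood test, Benjamini-Hochberg adjusted p below 0.05). Together they made up 8.13% of the features tested, 6.38% higher and 1.75% lower. Among the calls the rises were mostly moderate and the falls larger, but the 2 sets differed in abundance. Over the 6 libraries the higher features had a median of 55.4 CPM and the lower features 2.18 CPM. The lower features thus rest on fewer counts, and sizes were not compared at equal abundance. The 798 had a median log2 fold change of 1.32, and 142 of them (17.8%) exceeded 4-fold. The 219 had a median of -2.43, and 134 of them (61.2%) exceeded 4-fold. Extremes were a log2 fold change of 7.45 and one of -9.38. The median over all tested features was -0.06.

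These calls all stood close to the threshold. The smallest adjusted p among the 12514 features was 0.0374 (edgeR), shared by many features, and 4485 features (35.8%) had an unadjusted p under 0.05. With strain as a replicate block no feature was called (edgeR, smallest adjusted p 0.0693, 4624 features at an unadjusted p under 0.05), and with RLE size factors none either (smallest adjusted p 0.0503, 4593 at an unadjusted p under 0.05). DESeq2 called 3021, of which 1555 were higher and 1466 lower, and these included all 1017 of edgeR's calls. With library totals alone the split turned to 370 higher and 5948 lower, because the median of all log2 fold changes shifted from -0.06 to -0.83, and 911 of the 1017 kept their sign.

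Which strains were in the fit decided the count as well. Without strain C-7, 1959 features were higher and 2284 lower, and 1011 of the 1017 calls were among them. Without strain C-M or strain C-9 no feature was called (edgeR, 2157 and 2167 features at an unadjusted p under 0.05). The share of calls that were higher on saguaro was 78.5% with all strains, 46.2% without C-7 and 51.5% with DESeq2.

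Although the C-7 difference was small, it mostly ran the same way. Of the features that differed more than 2-fold in the same direction in both C-M and C-9, 1254 were higher on saguaro and 2077 lower, and C-7 took no part in choosing them. C-7 had the same sign for 1020 of the 1254 (81.3%, against 56.0% positive over all tested features) and for 1706 of the 2077 (82.1%, against 44.0% negative over all). Its median log2 difference was 0.33 for the first set, where the mean of the other strains had a median of 2.02, and -0.69 for the second, where it was -2.89. In C-7, 6.14% and 24.3% of these features passed 2-fold in the same direction. Of all 12514 features, 210 were more than 2-fold higher and 672 more than 2-fold lower in C-7. The smaller C-7 difference was also present among the 1017 calls, of which 96.2% had their smallest absolute difference in that strain, against 69.2% of all features. With library totals alone, the C-7 sign was shared by 61.3% of the higher set (23.4% over all features) and 85.4% of the lower set (76.5% over all).

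Across the 12514 features, which are not independent replicates, the differences of C-M and C-9 had a Pearson r of 0.694. The r was 0.533 for C-M with C-7 and 0.419 for C-7 with C-9. These pairs of strains share no library, but all were scaled together. C-M and C-9 both exceeded 2-fold in the same direction for 3331 features and in opposite directions for 159. Falls past 2-fold were more frequent in C-M and rises past 2-fold in C-9. On saguaro 3599 features were more than 2-fold lower in C-M and 2628 in C-9, while 1544 and 2267 were more than 2-fold higher. Each strain's numbers rest on 1 library per food. At equal depth the C-M saguaro library had the fewest features with at least 1 count of the 6 libraries (11778), and a link with its falls was not tested.

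**Figure D2:**
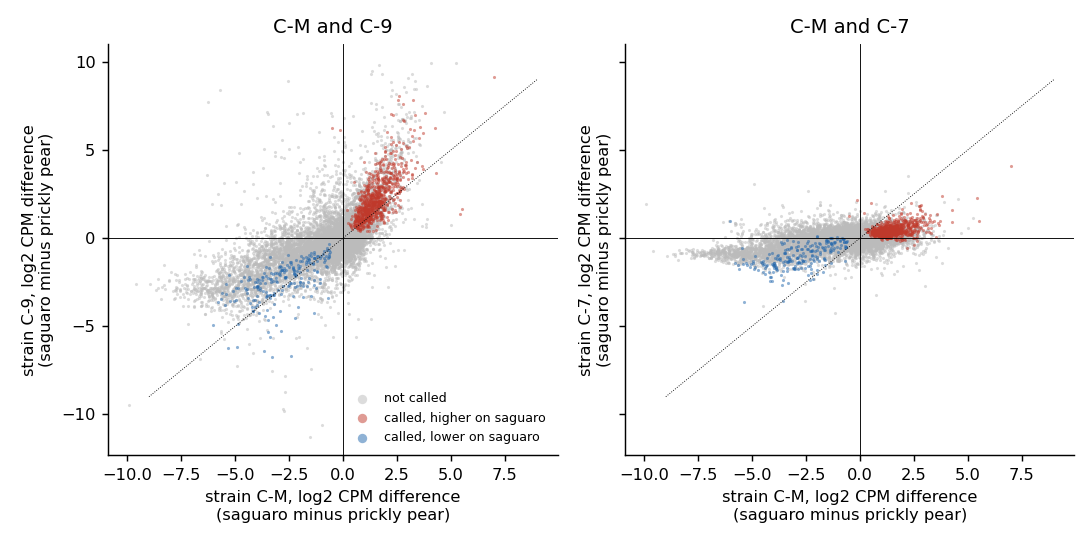
Saguaro minus prickly pear difference in log2 CPM of each of 12514 features in strain C-M (x axis) against strain C-9 (left, y axis) or strain C-7 (right, y axis). Points are features, coloured by their edgeR call over all 3 strains, and the dotted line marks equal differences; r is 0.694 on the left and 0.533 on the right, where the C-7 differences lie flat along the horizontal axis.

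All 3 saguaro libraries lay above all 3 prickly pear libraries for 2207 features (17.6% of those tested) and below them for 2269 (18.1%). Of the 798 features called higher, 772 were without overlap, and so were 212 of the 219 called lower. The difference exceeded 2-fold in every strain for 77 features that were higher on saguaro and 505 that were lower. This reverses the balance of the calls. Of the 77, 46 were called (59.7%), and of the 505, 114 (22.6%). The 505 were scarce, with a median of 1.83 CPM over the 6 libraries and 85.0% of them under 5 CPM, while the 77 had a median of 45.0 CPM. The median SE of the log2 fold change was 0.83 in the 505 and 0.72 in the 77. With library totals alone, 28 features were more than 2-fold higher in every strain and 1109 more than 2-fold lower.

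Under TMM scaling, abundant features tended to be higher on saguaro and scarce ones lower, while with library totals alone the median of each class was below 0. Among the 256 features with a mean of 500 CPM or more over the 6 libraries, 48 were called higher (18.8%) and 0 lower (edgeR), with a median log2 fold change of 0.58. None of the 256 was lower at an unadjusted p under 0.05 either, and DESeq2 called 127 higher and 0 lower. From 50 to 500 CPM, 378 of 2149 were called higher (17.6%) and 12 lower (0.558%), and the median was 0.35. From 5 to 50 CPM, 327 of 5191 were called higher (6.30%) and 63 lower (1.21%), with a median of 0.01. Under 5 CPM the balance turned, with 45 of 4918 called higher (0.915%) and 144 lower (2.93%) and a median of -0.50.

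The same order over abundance was present within strains, in different size. From the scarcest to the most abundant class the median log2 difference ran from -1.10 to 0.71 in C-M, from -0.18 to 0.26 in C-7 and from -0.56 to 1.22 in C-9. Classes were also formed from lab food levels, which use none of the 6 libraries. Under 5 CPM, 43 of 4920 were called higher (0.874%) and 156 lower (3.17%). At 500 CPM or more, 48 of 291 were called higher (16.5%) and 0 lower. Over all tested features the shares were 6.38% and 1.75%. With library totals alone the order of the medians remained, from -1.25 in the scarcest class to -0.14 in the most abundant. In that most abundant class 41 of 256 features were then called higher and 28 lower. Of all 12514 features, 370 were called higher and 5948 lower under this scaling. The median difference in the most abundant class was -0.19 in C-M, -0.03 in C-7 and 0.11 in C-9. The zero point of these differences is thus set by the scaling.

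**Figure D3:**
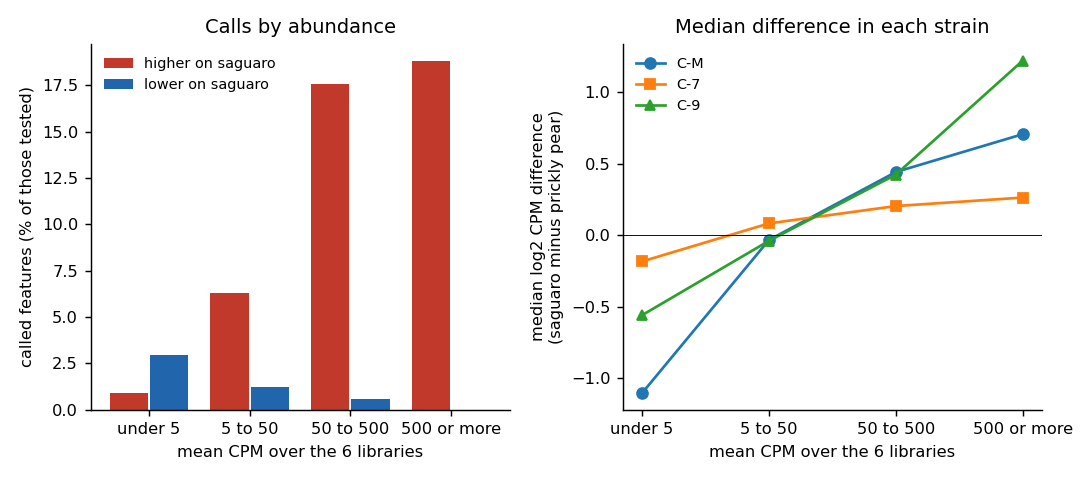
Left, share of tested features (%) called higher or lower on saguaro (edgeR) in 4 classes of mean CPM over the 6 libraries. Right, median saguaro minus prickly pear difference in log2 CPM (y axis) in the same classes for each of the 3 strains; it increases with abundance in each strain, from -1.10 to 0.71 in C-M, and the place of the zero line depends on the scaling.

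Values that need no scaling between libraries differed in the same sense. The 100 most abundant features of a library held 57.9% (C-M), 51.8% (C-7) and 51.8% (C-9) of its counts on saguaro, and 46.3% (C-M), 47.7% (C-7) and 39.1% (C-9) on prickly pear. The foods did not overlap, and the share was higher on saguaro in 3 of 3 strains. The means were 53.9% ± 3.53 and 44.3% ± 4.64 (SD, n = 3). The exact permutation p was 0.1, two-sided, the smallest that 3 against 3 libraries can give. The permutation did not use the pairing by strain. The number of features that together held 50 percent of a library was 42 (C-M), 84 (C-7) and 86 (C-9) on saguaro, against 140 (C-M), 123 (C-7) and 244 (C-9) on prickly pear. The most abundant feature of each library held 11.4% to 16.2% of its counts on saguaro and 6.12% to 11.1% on prickly pear. It was the same feature in the 3 saguaro libraries and the C-7 prickly pear library. In the C-M and C-9 prickly pear libraries a different feature was the most abundant.

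Fewer features reached 1 CPM on saguaro. This number falls when the top features hold a larger share, so it is not independent of the shares above. With every library thinned to 12177096 counts, those at 1 CPM or more of the library's own total numbered 8561 (C-M), 10704 (C-7) and 9629 (C-9) on saguaro. On prickly pear there were 11419 (C-M), 11388 (C-7) and 11769 (C-9). Saguaro was lower in 3 of 3 strains without overlap, at 9631 ± 1072 against 11525 ± 212 (SD, n = 3). The exact permutation p, again without the pairing, was 0.1 (two-sided, the smallest possible). The C-M saguaro library stood lowest, with 11778 features having at least 1 count at this depth, while the other 5 libraries had 13814 to 14672. By that count saguaro and prickly pear stood at 11778 and 14481 in C-M, 14224 and 14494 in C-7, and 13814 and 14672 in C-9. Without the C-M saguaro library the mean difference in features at 1 CPM or more was -1359, and with it -1894.

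Features of the same assembly component can be copies or versions of a gene. In 65 components 2 or more features were called, and in 60 of these all called features had the same direction, 53 with all higher and 7 with all lower. Over all 6425 pairs of tested features from the same component, 64.0% had the same sign. Since 78.5% of all calls were higher, a shared direction is frequent among unrelated calls too, and a link within components was not tested. Reads can be divided between such features, so their calls are not independent.

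By a fixed rule, the 2 features with the smallest p in each direction are named, among those called, without overlap and at 5 CPM or more on the higher side. comp39016_c2 had 59.3 CPM (C-M), 40.3 CPM (C-7) and 48.8 CPM (C-9) on saguaro, from 553, 518 and 570 counts. On prickly pear it had 17.4 CPM (C-M), 21.1 CPM (C-7) and 12.3 CPM (C-9), from 266, 361 and 266 counts. Every saguaro library was above every prickly pear library, as the rule requires, with the narrowest gap in C-7. The log2 fold change was 1.55 (SE 0.23, adjusted p = 0.0374, edgeR). Its component holds 4 tested features, so its separate level is uncertain. On lab food it lay between the cacti in Santa Catalina, at 26.9 ± 8.38 CPM (SD, n = 3).

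comp36958_c0 was at 83.8 CPM (C-M), 72.8 CPM (C-7) and 83.0 CPM (C-9) on saguaro. The prickly pear libraries had 25.03 CPM (C-M), 44.1 CPM (C-7) and 22.5 CPM (C-9) of it. The saguaro levels were close together and the prickly pear level of C-7 was the highest of its food. Its log2 fold change was 1.39 (SE 0.22, adjusted p = 0.0374, edgeR). Lab food, at 67.5 ± 2.04 CPM (SD, n = 3), was nearer to saguaro.

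In the other direction, comp33434_c0 had 9.98 CPM (C-M), 12.2 CPM (C-7) and 9.34 CPM (C-9) on saguaro. It had 18.4 CPM (C-M), 16.0 CPM (C-7) and 24.1 CPM (C-9) on prickly pear, where C-9 was highest. Its log2 fold change was -0.89 (SE 0.18, adjusted p = 0.0374, edgeR), and the lab food level of 11.8 ± 0.931 CPM (SD, n = 3) was near that on saguaro. comp36275_c0 had 9.01 CPM (C-M), 9.56 CPM (C-7) and 7.79 CPM (C-9) on saguaro, and 14.1 CPM (C-M), 13.6 CPM (C-7) and 16.1 CPM (C-9) on prickly pear. Both foods were narrow in range, and the log2 fold change was -0.73 (SE 0.15, adjusted p = 0.0374, edgeR). Each of the 4 named features had the same direction in every strain, which the rule of no overlap already sets. The 16 other settings use the same counts or part of them, and the direction held in every one. Each feature was called in only 6 of the 16, with adjusted p-values up to 0.388 (edgeR or DESeq2).

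**Figure D4:**
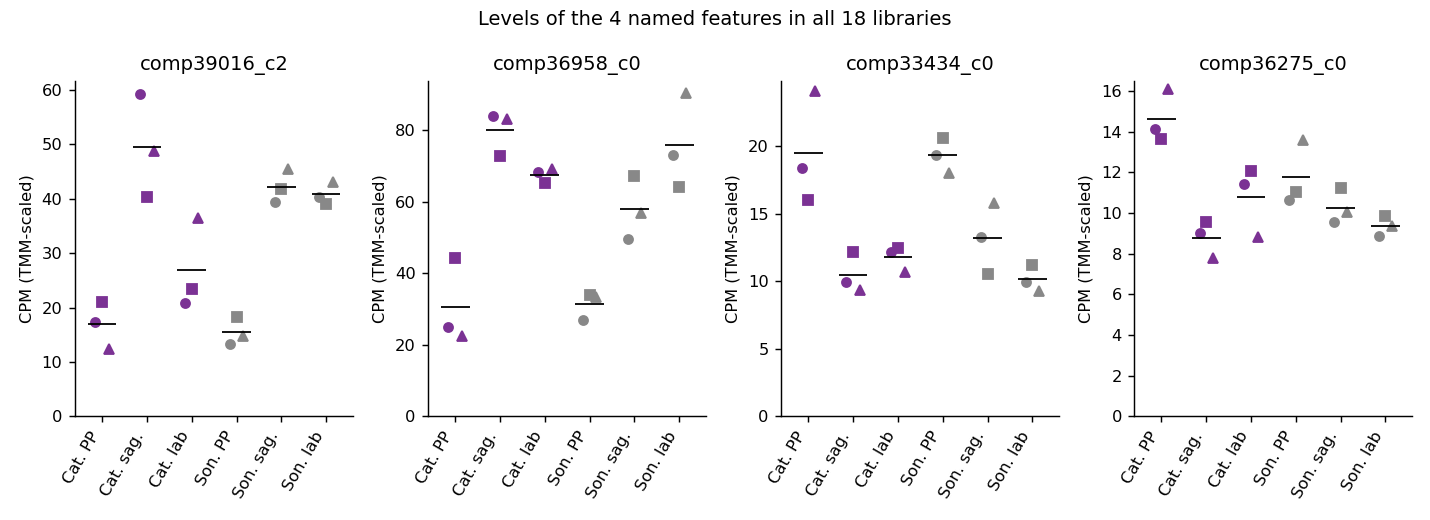
TMM-scaled CPM (y axis) of the 4 named features in all 18 libraries, by population and food (x axis; PP is prickly pear). Circles, squares and triangles are replicates 1 to 3 (C-M, C-7, C-9 or T-22, T-27, T-28), and black lines are group means. In all 3 Catalina strains comp39016_c2 and comp36958_c0 lie higher and comp33434_c0 and comp36275_c0 lower on saguaro than on prickly pear, as the rule for naming them requires.

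The Catalina lab food mean was between the cactus means for 709 of the 798 features called higher (88.8%) and 206 of the 219 called lower (94.1%), against 57.3% of all tested. Called features were chosen for a wide gap between the cacti, which takes in another mean more often, so the contrast with all tested features is partly set by the choice. For the higher features lab food was 0.39 below saguaro and 0.86 above prickly pear in the median, on the log2 scale. For the lower features it was 1.05 above saguaro and 0.89 below prickly pear. These shares depend on the scaling: with library totals alone 62.2% of the called features had lab food between the cacti, and 73.0% of all features.

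The Sonoran larvae give a comparison of the same foods in libraries that are separate from the 6. There, 793 of the 798 features called higher in Santa Catalina also had a positive fold change (99.4%, against 44.8% of all tested), and 208 of the 219 called lower had a negative one (95%, against 55.1%). The Sonoran median log2 fold change also rose with abundance, from -0.20 under 5 CPM to 0.34 at 500 CPM or more over the 6 libraries. The calls differ from all tested features in abundance, so these shares are not a background of equal abundance. All 3 Sonoran strains had the same sign for 735 of the 798 (92.1%, against 22.1% positive in all 3 strains over all features). For the 219 lower features this held for 106 (48.4%, against 20.7%). The sizes were smaller: the median log2 fold change of the higher features was 1.32 in Santa Catalina and 0.80 in Sonoran, and that of the lower features -2.43 and -0.63. The features were chosen on their Santa Catalina values, which makes those values larger, so the medians are not a test of a difference in size.

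The difference between the populations itself was not called for any feature (edgeR, smallest adjusted p 0.982, 248 features or 1.98% at an unadjusted p under 0.05, and 0 calls by DESeq2). Among the named features the Sonoran log2 fold changes were 1.45 for comp39016_c2 (SE 0.23), 0.88 for comp36958_c0 (SE 0.22), -0.54 for comp33434_c0 (SE 0.18) and -0.20 for comp36275_c0 (SE 0.15). In level, comp39016_c2 came to 42.2 ± 3.02 CPM on saguaro and 15.5 ± 2.60 CPM on prickly pear in Sonoran, beside 49.5 ± 9.54 CPM and 16.9 ± 4.41 CPM in Santa Catalina (SD, n = 3). For comp36275_c0 the Sonoran levels overlapped, at 9.58 to 11.2 CPM on saguaro and 10.6 to 13.6 CPM on prickly pear, and the difference between the populations had an unadjusted p of 0.0263 and an adjusted p of 0.982 (edgeR).

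In the Sonoran comparison 1 feature was called (0.00799% of those tested; 1676 features, 13.4%, had an unadjusted p under 0.05). It was comp39297_c4, named here after its values were seen. In Santa Catalina it had 345 ± 52.1 CPM on saguaro and 279 ± 28.04 CPM on prickly pear (SD, n = 3). The log2 fold change there was 0.31 (SE 0.28, adjusted p = 0.443, edgeR), where the Sonoran log2 fold change was 2.11. The unadjusted p of the difference between the populations was 0.000434 and its adjusted p 0.982 (edgeR).

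**Figure D5:**
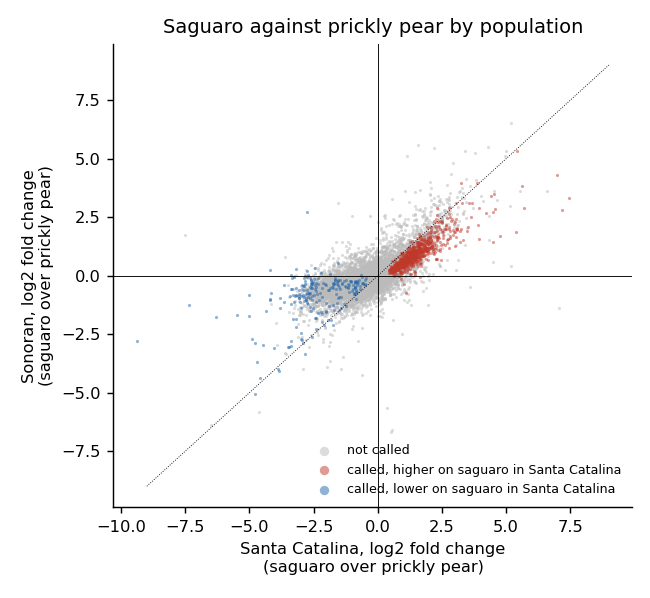
Log2 fold change, saguaro over prickly pear, of 12514 features in Santa Catalina (x axis) and Sonoran larvae (y axis), from the same edgeR fit; the dotted line marks equal values. Of the coloured features, called in Santa Catalina, 99.4% of the higher and 95% of the lower have the same sign in Sonoran.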

How the data were processed

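The authors deposited whole-number counts per assembled gene for 18 libraries; the series' design text says that Trinity built the assembly and that sequences of a gene were merged into 1 count. The counting program and rounding are not stated in the sources used here, and edgeR is named in the submitters' processing notes. Counts were analysed with edgeR 4.0.16 in R 4.3.3: filterByExpr on the 6 groups, TMM factors, a model of 6 group means on 18 libraries (12 residual degrees of freedom), quasi-likelihood F tests and Benjamini-Hochberg adjustment over 12514 features. SE is the log2 fold change divided by the square root of F, and log2 CPM within strains used a prior count of 2. DESeq2 1.42.0, other scalings, no filter, a strain block and leaving out libraries were the alternatives. Strain pairs the foods by its label. Deviations from the group means correlated at 0.153 (C-M), -0.137 (C-7) and -0.0259 (C-9) between the cacti. Between unlike strains they ran from -0.139 to 0.154, so these correlations do not show the pairing. No 2 libraries of the same food among the 6 were repeats (smallest chi-square per degree of freedom 88.7). Scripts were tested on simulated data. Features, lists and rules were chosen with earlier results of these data known; per direction the 2 called features with the smallest p, no overlap and 5 CPM or more on average where higher are named. Depth was 6769906 to 16115982 counts.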

Additional observations from a re-analysis of the deposited data

How the results depend on the processing

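The number of calls depended on nearly every choice. Against 798 higher and 219 lower, there were 0 and 0 with RLE factors, in a fit of only the 6 libraries, and with strain as a replicate block on all 18 or on the 6 libraries. There were 370 and 5948 with library totals alone, 354 and 74 with no filter, and 1555 and 1466 with DESeq2. Leaving out libraries or strains gave 0 to 1959 higher and 0 to 2357 lower. It gave 0 calls without the C-M or the C-9 library of either food (edgeR, 3059 to 3531 features at an unadjusted p under 0.05), 1919 higher and 2357 lower without the C-7 saguaro library, 1959 and 2284 without strain C-7, and 1157 and 411 without the C-7 prickly pear library. With 2 libraries on a side the spread is taken from all groups. In 10 of the 16 settings none of the 1017 was called. Even so, all settings except library totals alone and the 6 libraries alone kept the sign of at least 1016 of them. Both fits of the 6 libraries alone tested 11771 features, and 989 of the 1017 had the same sign there. Calls not tested in a setting were not counted, so the others need not have changed sign. The calls without strain C-7, by DESeq2 and with library totals alone had the same sign in Sonoran for 98.2%, 99.0% and 99.7% of the higher and 95.2%, 95% and 81.7% of the lower features, where the Sonoran signs are those under TMM scaling (44.8% of all features positive, 55.1% negative). The difference between populations stayed at 0 calls in each setting run. The difference in the top share was 6.86 to 11.2 percentage points, and in features at 1 CPM or more -2430 to -1359, without 1 library. A prior count of 5 gave strain differences of 1.61 (C-M), 0.472 (C-7) and 1.53 (C-9). Settings for abundance class by lab food, for Sonoran signs and for scalings of strain values were chosen after seeing the data. Depth limits the 4918 features under 5 CPM most, since they rest on the fewest counts.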
